A study of Mus musculus with 46 samples.

Results

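The genes Srebf1, Srebf2, Scap, Insig1 and Insig2, which encode the machinery that senses sterols in the endoplasmic reticulum and switches on lipid synthesis, were followed through 9 treatment groups of mouse macrophages. They were chosen by name, as the rows of the gene table with these symbols, and make up 5 of its 24671 genes. All 5 had enough counts to be tested.

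Macrophages had been grown from mouse bone marrow (bone marrow-derived macrophages, BMDM) and 46 libraries of their polyadenylated RNA were sequenced, to ask what ligands of the liver X receptors (LXR) and estrogen receptors (ER) do in these cells. Vehicle had 6 libraries and each of 8 treatments had 5. The groups were Vehicle, 27HC (27-hydroxycholesterol, an oxysterol), E2 (estradiol, an ER agonist), ICI (fulvestrant, an ER antagonist), GSK2033 (an antagonist of LXR), GW3965 (a synthetic agonist of LXR), GW3965 together with a second compound, ICI with 27HC, and GSK2033 with 27HC. For the GW3965 combination, titles and the column headers of the counts give 27HC where source and treatment labels give ICI. Its second compound is therefore left unnamed. Strain, age and genotype of the mice, doses and times are not given in the sources used here, nor is the origin of replicates (animal, culture or extraction). The p-values therefore cover the spread among these libraries alone, and that spread may be technical.

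Sterol regulatory element-binding proteins (SREBPs) are made as membrane-bound precursors, Srebf2 encoding SREBP-2, which chiefly drives cholesterol synthesis and uptake, and Srebf1 encoding SREBP-1a and SREBP-1c, of which the latter chiefly drives fatty acid synthesis. Scap escorts the precursors from the endoplasmic reticulum to the Golgi in COPII vesicles, where proteases release the active factor. When sterols are plentiful, cholesterol bound to Scap or oxysterols bound to INSIG proteins hold Scap back. Srebf1 is also a textbook target of LXR, Srebf2 and Insig1 are targets of the SREBPs themselves, and Insig1 is thus part of a feedback loop. Only RNA was measured here, neither precursor cleavage nor sterols.

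Levels are CPM (counts scaled to 1000000 per library, with TMM factors), given with SD, over 6 libraries (n = 6) for Vehicle and 5 (n = 5) for each treatment. Differences are log2 fold changes with their standard error. Each adjusted p comes from the quasi-likelihood test of edgeR, adjusted by Benjamini-Hochberg across the 13838 genes tested, and "called", "rose" and "fell" mean an adjusted p below 0.05.

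All 5 genes are protein-coding and their positions are on GRCm38. Srebf1 (ENSMUSG00000020538) spans chromosome 11, 60199089 to 60222581, on the minus strand, and Srebf2 (ENSMUSG00000022463) spans chromosome 15, 82147181 to 82205379, on the plus strand. Scap (ENSMUSG00000032485) lies on chromosome 9, 110333288 to 110384950, plus strand. Insig1 (ENSMUSG00000045294) lies on chromosome 5, 28071363 to 28078662, plus strand, and Insig2 (ENSMUSG00000003721) on chromosome 1, 121304353 to 121332589, minus strand. Exons of Srebf1 share 109 nt with Rai1 on the opposite strand and 66 nt with the microRNA gene Mir6922, and exons of Scap share 985 nt with a gene of unknown coding status on the opposite strand. The libraries were stranded, but whether quantification used the strand is not given in the sources used here. Mir33 lies within an intron of Srebf2 and shares no exon with it. Counts per gene cannot separate the Srebf1 isoforms.

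The start-site regions of the 3 members whose level changed are shown. They are RefSeq windows (GRCm38.p6) of up to 250 bases before a RefSeq start, cut where an annotated exon begins, read 5′ to 3′ on the gene's strand, and the capitals mark motif matches. Insig1 is chr5:28071162-28071362 (plus strand), Srebf2 is chr15:82147019-82147180 (plus strand), and Srebf1 is chr11:60210472-60210721 (minus strand), the window of the start at 60210471.
Srebf1: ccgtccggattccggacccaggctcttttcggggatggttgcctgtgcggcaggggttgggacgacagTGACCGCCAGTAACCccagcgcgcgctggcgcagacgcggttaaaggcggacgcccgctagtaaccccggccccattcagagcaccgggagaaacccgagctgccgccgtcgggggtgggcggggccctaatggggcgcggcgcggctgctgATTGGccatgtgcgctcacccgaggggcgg
Srebf2: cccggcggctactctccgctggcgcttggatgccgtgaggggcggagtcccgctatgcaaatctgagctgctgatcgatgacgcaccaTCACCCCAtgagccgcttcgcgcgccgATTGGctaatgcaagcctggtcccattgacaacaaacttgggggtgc
Insig1: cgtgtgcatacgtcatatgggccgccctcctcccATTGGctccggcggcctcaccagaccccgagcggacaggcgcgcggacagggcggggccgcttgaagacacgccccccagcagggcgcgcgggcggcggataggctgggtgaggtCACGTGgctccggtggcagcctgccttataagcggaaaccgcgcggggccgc

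The windows were searched on both strands for 4 motifs: the core of the sterol regulatory element (TCACNCCA), the E-box CACGTG, the CCAAT box bound by NF-Y, a partner of SREBPs, and a direct repeat of GGTNA separated by 5 bases, the core of an LXR response element. The letters of the last were set with the Srebf1 window known. The Srebf2 window held the sterol element core at bases -162 to -155 from the RefSeq start and a CCAAT box on the opposite strand at -135 to -131. Of 32851 RefSeq windows of the same 162 bases, 2.37% held the sterol element core and 21.8% a CCAAT box. The Srebf1 window held the direct repeat on the opposite strand at -182 to -168, which 0.621% of windows of 250 bases held. It also held a CCAAT box at -30 to -26, a motif that 33.8% of windows of this length held. The Insig1 window held the E-box at -101 to -96, present in 4.36% of windows of 201 bases. It also held a CCAAT box at -216 to -212, a motif present in 28.6% of windows of this length. Neither the Insig1 window nor the Srebf1 window shown held the sterol element core. The sterol element core, the E-box and the direct repeat were not found in the 2 other Srebf1 windows, nor in the windows of Insig2 and Scap that held non-exonic sequence, and CCAAT boxes were found in windows of Srebf1 and Insig2 among these. A match is a description of the sequence only.

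The libraries held 19354093 to 30921038 estimated counts each. The 7 macrophage markers were detected in every group, with summed levels of 9080 to 22100 CPM. Summed markers reached at most 2.71 CPM for neutrophils (Ly6g and Elane below 0.1 CPM in all libraries), 0.578 for lymphocytes and 1.57 for dendritic cells, and ran from 2.88 to 10.6 for mast cells and basophils. The 4 stromal markers Col1a1, Col3a1, Pdgfrb and Sparc were all detected, with a summed level of 2990 to 3510 CPM with Vehicle.

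Srebf1, Srebf2 and Insig1 changed with treatment and Scap and Insig2 did not pass the test in any comparison. Against Vehicle, Srebf1 rose in 3 and fell in 2 of 8 treatments, Srebf2 fell in 6 and rose in 0, and Insig1 rose in 1 and fell in 6. Over 17 comparisons, 38 of 85 results of the 5 genes were called (44.7%), beside 34.4% of the results of all genes tested. Of the 34 calls between a pair of groups, 31 had no library of either group within the range of the other, and the 3 that overlapped are named below. Calls without such overlap made up 41.3% of the pairwise results of these genes and 24.4% of those of all genes tested, and neither share is read as a trait of the 5 genes.

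**Figure D1:**
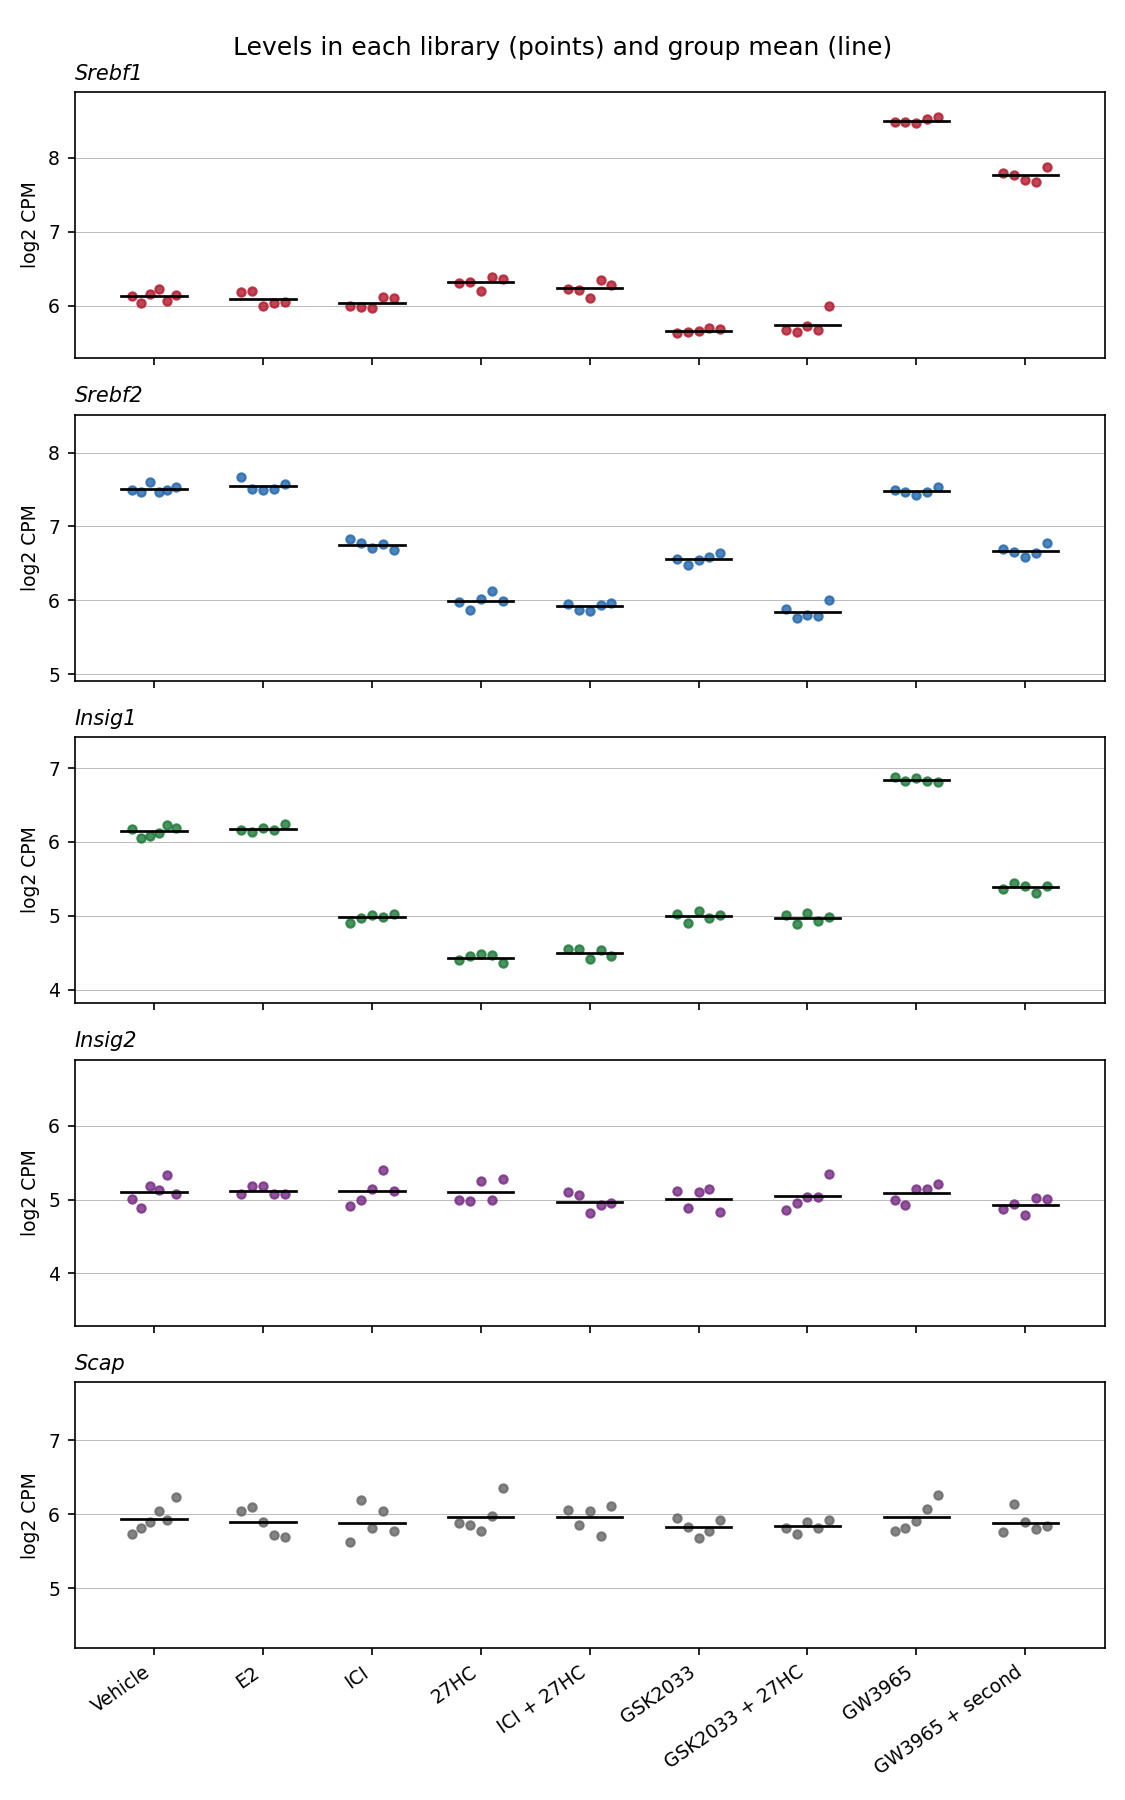
Level of each gene (log2 CPM, a log scale of equal height in all panels) in 46 libraries by treatment group; points are libraries and black lines are group means, and "second" is the unnamed second compound. Srebf1 stood apart in the 2 groups with GW3965, Srebf2 and Insig1 were low in all groups with 27HC, ICI or GSK2033, and the groups overlapped for Insig2 and Scap.

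Per kb of the longest coding transcript, the Vehicle level was 35.8 ± 1.26 CPM per kb for Srebf2, 26.2 ± 1.19 for Insig1, 16.2 ± 0.739 for Srebf1, 14.6 ± 1.82 for Scap and 12.8 ± 1.35 for Insig2. On the length of all exons joined, Scap (8.29 CPM per kb) stood below Insig2 (9.94), so the order of these 2 genes depends on the length used. Srebf2 was the most abundant of the 5 on either length.

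Srebf1 had the widest range of the 5. The Vehicle libraries ran from 65.8 through a median of 70.0 to 74.6 CPM. With GW3965 the libraries held 360, 357, 355, 368 and 375 CPM, and with GW3965 plus the second compound 222, 217, 209, 204 and 234 CPM. Both groups lay above all other libraries and apart from each other.

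Srebf1 rose 5.20-fold with GW3965 (log2 2.38 ± 0.0476, adjusted p = 6.05e-37), from 69.8 ± 3.18 to 363 ± 8.18 CPM. In that comparison 44.2% of all genes tested were called, and 2 of the 5 genes described here. In these bulk samples, fewer cells of a type and less RNA per cell cannot be told apart. With the second compound, Srebf1 was 3.11-fold above Vehicle (log2 1.64 ± 0.0472, adjusted p = 5.77e-31), a comparison in which 49.5% of genes were called and 3 of the 5. Against GW3965 alone it fell by 0.74 ± 0.0474 on the log2 scale (adjusted p = 9.74e-17), where 17.5% of genes were called and 3 of the 5.

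The natural oxysterol moved Srebf1 far less. With 27HC the libraries held 78.8, 79.6, 72.7, 83.7 and 82.3 CPM, of which the lowest lay within the Vehicle range. The rise was 1.14-fold (log2 0.19 ± 0.0486, adjusted p = 0.00159), where 40.3% of genes were called and 3 of the 5. Set against GW3965 directly, the 27HC libraries were 4.57-fold lower (log2 -2.19 ± 0.0503), with 25.3% of genes called and 3 of the 5.

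The LXR antagonist lowered Srebf1. With GSK2033 the libraries held 49.3, 49.8, 50.0, 51.9 and 51.0 CPM, all below every Vehicle library and with the smallest SD of the 9 groups (1.03 CPM). Srebf1 was 1.38-fold lower than with Vehicle (log2 -0.47 ± 0.0501, adjusted p = 1.37e-10), and 36.3% of genes were called, with 3 of the 5. From GSK2033 to GW3965, the span of the LXR ligands, Srebf1 differed 7.21-fold (log2 2.85 ± 0.0522, adjusted p = 1.10e-38), and 46.5% of genes were called, with 3 of the 5.

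With GSK2033 plus 27HC the Srebf1 libraries held 50.9, 49.8, 52.5, 50.8 and 63.8 CPM. The last library stood above the other 4, and all were below the Vehicle range. Against Vehicle the group stood at -0.38 ± 0.0496 on the log2 scale (adjusted p = 7.73e-09), where 50.4% of genes were called and 3 of the 5. Without that library the difference was -0.44.

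The ER ligands left Srebf1 near Vehicle. Its level was 68.2 ± 4.31 CPM with E2 and 65.3 ± 3.14 with ICI, and both groups overlapped Vehicle. The log2 differences from Vehicle were -0.03 ± 0.049 with E2 (95% interval -0.13 to 0.07) and -0.10 ± 0.049 with ICI (-0.20 to 0.00, adjusted p = 0.155). With E2, 4.7% of genes were called and none of the 5 genes. With ICI, 26.4% were called, with Srebf2 and Insig1 among them.

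ICI with 27HC gave 74.5, 73.8, 68.5, 81.7 and 77.6 CPM of Srebf1, overlapping both Vehicle and 27HC. The difference from Vehicle was 0.11 ± 0.0487 (adjusted p = 0.0593), in a comparison with 53.0% of genes and 2 of the 5 called. That from ICI alone was 0.20 ± 0.051 (adjusted p = 0.00101), with overlapping libraries, where 40.4% of genes and 3 of the 5 were called.

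In the order of the 9 group means, only GW3965 against GW3965 plus the second compound, and the latter against 27HC, were neighbours whose Srebf1 libraries did not overlap. The span of Srebf1 group means, 2.85 on the log2 scale, lay at percentile 98.5 of all genes tested, for which the median span was 0.49. Rai1, which shares exonic sequence with Srebf1, stood at 13.1 to 24.8 CPM in all libraries and rose with GW3965 by 0.40 ± 0.0838. Its part in the Srebf1 values was not tested.

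Srebf2 was not raised by any treatment. The Vehicle libraries ran from 175 through a median of 180 to 193 CPM. E2 gave 204, 182, 181, 182 and 191 CPM and GW3965 gave 181, 177, 172, 177 and 186 CPM. Both groups overlapped Vehicle. The log2 difference was 0.05 ± 0.0384 with E2 (95% interval -0.03 to 0.12) and -0.02 ± 0.0385 with GW3965 (-0.10 to 0.05, adjusted p = 0.655). The LXR agonist that raised Srebf1 5.20-fold thus left a Srebf2 difference within about 0.1 log2 units.

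With 27HC the Srebf2 libraries held 63.1, 58.3, 64.7, 69.4 and 63.5 CPM, less than any Vehicle library. Srebf2 fell 2.85-fold (log2 -1.51 ± 0.041, adjusted p = 1.87e-31). Against GW3965 it was 2.80-fold lower with 27HC (log2 -1.49 ± 0.0422), the same pair of LXR ligands between which Srebf1 differed 4.57-fold.

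Both antagonists lowered Srebf2 by less than 27HC did. With ICI the libraries held 114, 109, 104, 108 and 103 CPM and with GSK2033 they held 94.6, 89.0, 93.8, 95.4 and 99.7 CPM. All 10 lay below Vehicle and above 27HC. The fall from Vehicle was 1.69-fold with ICI (log2 -0.76 ± 0.0394, adjusted p = 3.39e-20) and 1.93-fold with GSK2033 (log2 -0.95 ± 0.0398, adjusted p = 7.15e-24).

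GW3965 plus the second compound gave Srebf2 libraries of 104, 101, 96.2, 99.6 and 109 CPM. All lay below the GW3965 libraries, and they overlapped those of ICI and of GSK2033. Against GW3965 alone, Srebf2 fell by 0.81 ± 0.0409 on the log2 scale (adjusted p = 2.53e-20).

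The lowest Srebf2 levels were those of the combinations with 27HC. ICI with 27HC gave 61.7, 58.3, 57.9, 61.4 and 62.5 CPM, and GSK2033 with 27HC gave 58.8, 54.1, 55.5, 55.1 and 63.8 CPM. Both overlapped the 27HC group. Adding ICI to 27HC changed Srebf2 by -0.08 ± 0.0433 (95% interval -0.17 to 0.01), and in this comparison 34.1% of genes were called and none of the 5. Adding GSK2033 to 27HC lowered Srebf2 by -0.15 ± 0.0433 (adjusted p = 0.00345), with 42.8% of genes and 3 of the 5 called. On library totals without TMM this last call was lost (-0.10, adjusted p = 0.0584).

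The Srebf2 group means fell into 3 tiers with no overlap between them: E2, Vehicle and GW3965 at 179 to 188 CPM, ICI, GW3965 plus the second compound and GSK2033 at 94.5 to 108 CPM, and the 3 groups with 27HC named in the labels' titles and treatments alike at 57.5 to 63.8 CPM. Neighbours within a tier overlapped. Srebf2 spanned 1.71 log2 units (percentile 93.8 of all genes tested).

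Scap, the escort, did not follow Srebf2 or Srebf1. The Vehicle libraries ran from 53.2 through 60.3 to 74.9 CPM, and the group means from 56.9 ± 4.19 CPM with GSK2033 to 63.2 ± 11.0 with 27HC. All neighbouring groups overlapped. The log2 difference from Vehicle ran from -0.11 to 0.04 over 8 treatments, and all 8 of the 95% intervals lay between -0.32 and 0.24. The smallest adjusted p of Scap in 17 comparisons was 0.283. The group SD of Scap was 0.078 to 0.232 on the log2 scale, against 0.060 to 0.182 for Insig2 and 0.031 to 0.067 for Insig1. Differences smaller than these intervals were not detectable here. The span of group means was 0.14, at percentile 1.65 of all genes tested.

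Insig1 had the most neighbouring groups without overlap in the order of means, 4 of 8 gaps against 2 of 8 for Srebf1 and for Srebf2. The Vehicle libraries ran from 66.8 through a median of 70.8 to 74.9 CPM. GW3965 gave 118, 113, 116, 114 and 112 CPM, all above every other library in the study. Insig1 rose 1.62-fold (log2 0.70 ± 0.0322, adjusted p = 5.19e-23), while Srebf2 in the same libraries stayed near Vehicle. E2 gave 71.2, 70.3, 72.9, 71.6 and 75.3 CPM, overlapping Vehicle, with a log2 difference of 0.03 ± 0.0327 (95% interval -0.03 to 0.10).

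With 27HC the Insig1 libraries held 21.1, 21.7, 22.2, 22.1 and 20.5 CPM. This was the lowest group mean (21.5 ± 0.739 CPM), 3.28-fold below Vehicle (log2 -1.71 ± 0.036, adjusted p = 1.75e-35) and 5.32-fold below GW3965 (log2 -2.41 ± 0.0371). Of the 3 members that changed, Insig1 had the largest fold between these LXR ligands.

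ICI gave 30.0, 31.3, 32.1, 31.6 and 32.6 CPM of Insig1 and GSK2033 gave 32.6, 30.0, 33.2, 31.2 and 32.0 CPM. The groups overlapped each other, and both lay far below Vehicle. Insig1 fell 2.24-fold with ICI (log2 -1.16 ± 0.0346, adjusted p = 9.16e-29) and 2.22-fold with GSK2033 (log2 -1.15 ± 0.0346, adjusted p = 2.87e-29). GSK2033 also separated from GW3965 by 3.60-fold (log2 1.85 ± 0.0358, GW3965 higher).

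GW3965 plus the second compound gave 41.3, 43.3, 42.1, 39.7 and 42.2 CPM, a tier of its own between Vehicle and the antagonists. Insig1 there stood at -0.76 ± 0.0337 against Vehicle (adjusted p = 7.52e-24) and 2.74-fold lower than GW3965 alone (log2 -1.46 ± 0.0349, adjusted p = 1.77e-32). The same addition lowered Srebf1 1.67-fold and Srebf2 1.76-fold.

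ICI with 27HC gave 23.4, 23.4, 21.2, 23.1 and 21.7 CPM of Insig1, overlapping 27HC alone. GSK2033 with 27HC gave 32.1, 29.7, 32.8, 30.5 and 31.5 CPM, overlapping GSK2033 alone and lying above every 27HC library. Against 27HC, GSK2033 with 27HC was 1.45-fold higher (log2 0.54 ± 0.0379, adjusted p = 2.17e-16), while Srebf1 was 1.48-fold lower (log2 -0.57 ± 0.0514, adjusted p = 6.20e-13). The span of Insig1 group means was 2.41 (percentile 97.4 of all genes tested). The order of ICI, GSK2033 and GSK2033 with 27HC, whose means were 31.3 to 31.8 CPM, changed on library totals.

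Insig2, the other INSIG gene, did not pass the test in any comparison. The Vehicle libraries ran from 29.5 through 34.4 to 40.1 CPM and group means from 30.4 ± 2.03 CPM with GW3965 plus the second compound to 34.8 ± 4.57 with ICI. All neighbouring groups overlapped, and the span of log2 group means was 0.19 (percentile 6.76). The log2 difference from Vehicle nearest to a call was -0.18 ± 0.0816 with GW3965 plus the second compound (adjusted p = 0.0577). The 8 intervals against Vehicle lay between -0.35 and 0.17, so a change of the size seen in Insig1 with 27HC lay outside them.

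**Figure D2:**
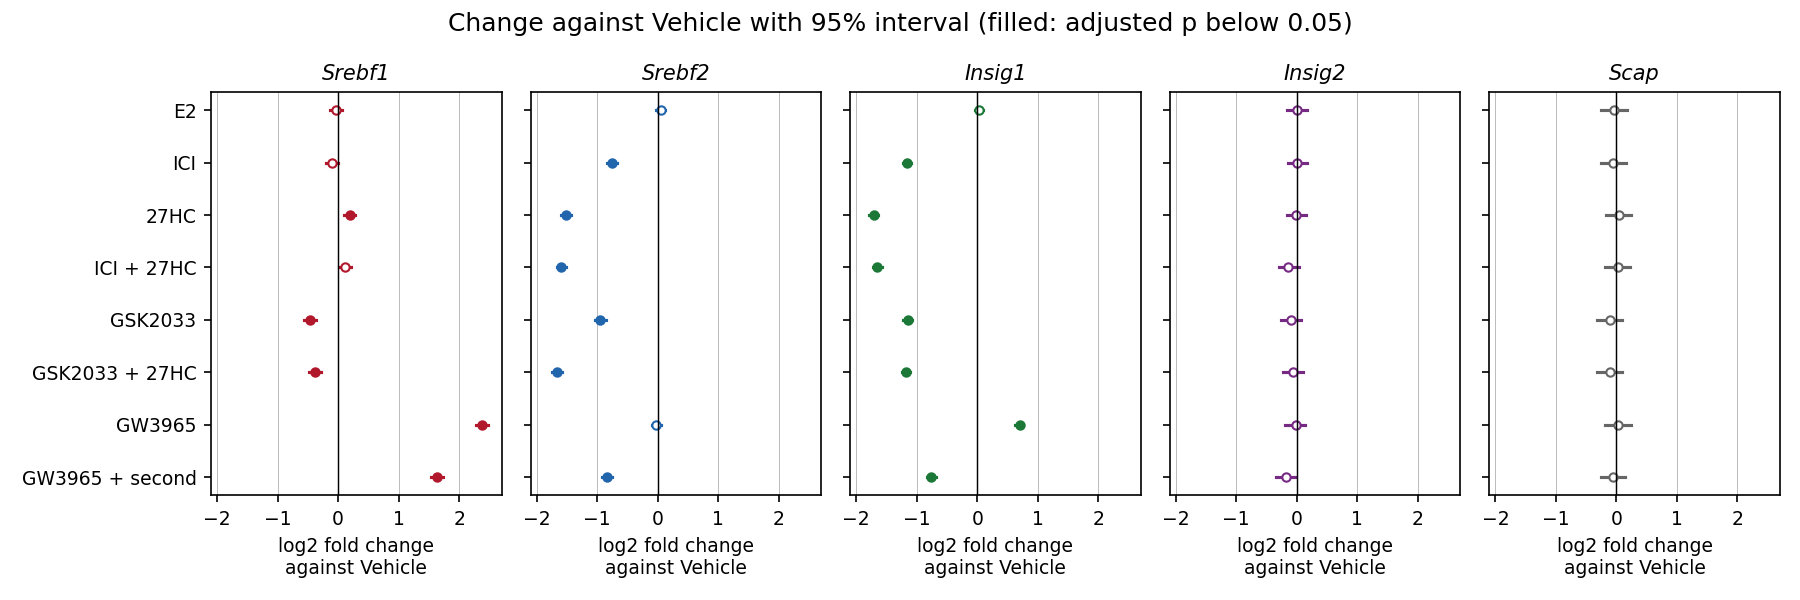
Log2 fold change against Vehicle of each gene in 8 treatments, with the 95% interval as a line (hidden where narrower than the point); filled points had an adjusted p below 0.05. Srebf1 reached 2.38 with GW3965, Srebf2 and Insig1 were called lower in 6 treatments, and no Insig2 or Scap point was filled.

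Marker levels differed between the same groups. The summed stromal markers, 2990 to 3510 CPM with Vehicle, were at 2320 to 2620 with 27HC, 2440 to 2900 with ICI and 1850 to 2090 with ICI plus 27HC, where Srebf2 and Insig1 were low. With GSK2033, where both genes were also low, they were at 2540 to 3090 CPM and overlapped Vehicle. Taken singly, 3 of the 4 stromal markers were nonetheless called lower with GSK2033 (median -0.33), where 17.9% of all genes tested fell. The summed stromal markers overlapping Vehicle is thus no sign that they were unchanged. They were at 2330 to 2730 CPM with GW3965, where Srebf2 stood near Vehicle and Insig1 was high. The summed macrophage markers were at 19600 to 21300 CPM with Vehicle, 13700 to 15000 with 27HC and 10700 to 11200 with GW3965. Single macrophage markers went both ways: of the 7, 1 rose and 5 fell with 27HC, and 2 rose and 5 fell with GW3965. Among all genes tested, 20.3% rose and 20.0% fell with 27HC, and 23.1% rose and 21.1% fell with GW3965. The macrophage sum is therefore not read as a uniform change. Of the 4 stromal markers taken singly, 1 rose and 3 fell with 27HC, and 0 rose and 3 fell with GW3965. With ICI, ICI plus 27HC, GSK2033 plus 27HC and GW3965 plus the second compound, 0 rose and 4 fell. Of all genes tested, 12.5%, 26.4%, 26.4% and 24.4% fell there, in the same order. The part of the stromal or macrophage markers in the results was not tested.

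Within libraries, the balance of the 2 SREBP genes differed between groups. The log2 ratio of Srebf1 to Srebf2 CPM was -1.38 ± 0.076 (SD, n = 6) with Vehicle and 1.02 ± 0.029 (SD, n = 5) with GW3965. It was 1.09 ± 0.034 with GW3965 plus the second compound, whose levels of both genes were lower than with GW3965 alone. With 27HC the ratio was 0.32 ± 0.105, reached by the fall of Srebf2 more than by the small rise of Srebf1. It was -0.72 ± 0.101 with ICI, -0.90 ± 0.049 with GSK2033 and -1.46 ± 0.086 with E2. These ratios are not scaled by length, so that only their differences between groups can be read.

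The balance of the INSIG genes moved as Insig1 did. The log2 ratio of Insig1 to Insig2 CPM was 1.04 ± 0.131 with Vehicle, 1.75 ± 0.131 with GW3965 and -0.66 ± 0.172 with 27HC. With ICI it was -0.13 ± 0.166, with GSK2033 -0.02 ± 0.132, and with GW3965 plus the second compound 0.46 ± 0.12. No library with 27HC reached the lowest Vehicle ratio of 0.89.

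**Figure D3:**
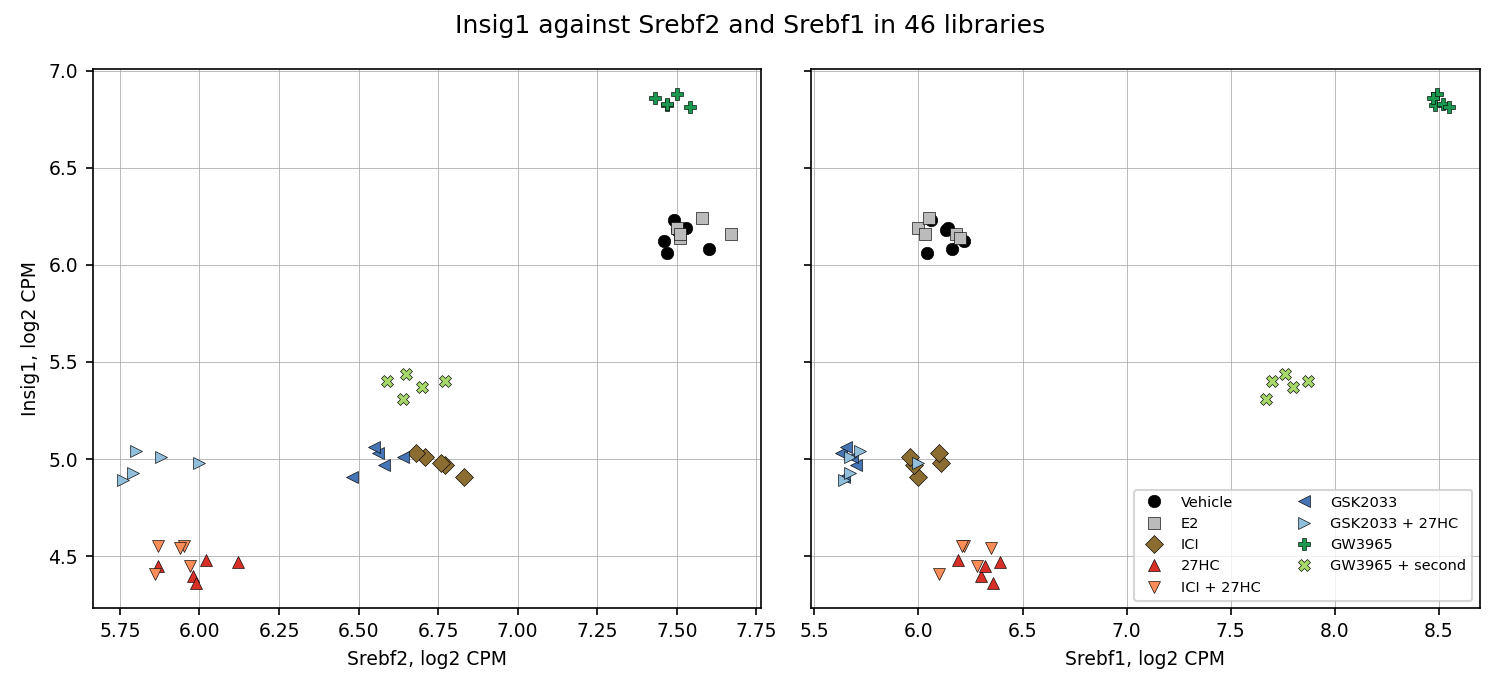
Insig1 against Srebf2 (left) and against Srebf1 (right) in 46 libraries, all in log2 CPM, each point a library and each symbol a treatment group. Insig1 and Srebf2 fell together across most groups, while the GW3965 groups stood out to the right with Srebf1.

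Over the 46 libraries, Pearson's r of log2 CPM was 0.904 for Srebf2 with Insig1, 0.536 for Srebf1 with Insig1 and 0.349 for Srebf1 with Srebf2. These are descriptions over libraries that form 9 groups and share a scaling factor within a library. Some groups depart from the common course of Srebf2 and Insig1. GW3965 had Insig1 high at a Vehicle level of Srebf2. With GW3965 plus the second compound, Srebf2 overlapped ICI and GSK2033. Insig1 there lay above both, at 39.7 CPM or more against at most 32.6 with ICI and 33.2 with GSK2033. GSK2033 with 27HC had Insig1 overlapping GSK2033 alone. Its Srebf2 was lower than with 27HC alone by 0.15 on the log2 scale (difference -0.15). Of the pairs with Insig2 or Scap, the highest r was 0.29, between these 2 genes.

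The combinations allow the question whether 27HC acts on these genes in the presence of an antagonist as it does alone. 27HC lowered Srebf2 by -1.51 on Vehicle, by -0.83 ± 0.0425 on ICI (adjusted p = 2.64e-21) and by -0.72 ± 0.0426 on GSK2033 (adjusted p = 1.13e-18). It changed Insig1 by -1.71 on Vehicle, by -0.48 ± 0.0378 on ICI (adjusted p = 8.10e-15) and by -0.02 ± 0.0368 on GSK2033 (95% interval -0.10 to 0.05, adjusted p = 0.667). In the comparison of GSK2033 with and without 27HC, 35.8% of all genes were called and 1 of the 5, Srebf2.

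The interaction, the change with 27HC in the presence of the antagonist minus that in its absence, tests this difference. For Insig1 it was 1.69 ± 0.0513 with GSK2033 (adjusted p = 3.25e-28) and 1.23 ± 0.0519 with ICI (adjusted p = 1.41e-22). For Srebf2 it was 0.79 ± 0.0585 with GSK2033 (adjusted p = 9.88e-15) and 0.68 ± 0.0584 with ICI (adjusted p = 1.25e-12). Of all genes tested, 19.6% were called in the GSK2033 interaction and 17.4% in that of ICI, and 2 of the 5 genes in each. Both interactions use the same Vehicle and 27HC libraries.

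The separate falls thus did not add up. For Insig1, the changes with 27HC and GSK2033 alone sum to -2.87, and the combination stood at -1.18. With ICI the sum was -2.88 and the combination stood at -1.65. For Srebf2 the sum was -2.46 with GSK2033 and -2.27 with ICI, and the combinations stood at -1.66 and -1.59. Srebf1 gave an interaction of -0.10 ± 0.0716 with GSK2033 (95% interval -0.24 to 0.04, adjusted p = 0.37) and 0.02 ± 0.0705 with ICI (-0.12 to 0.16, adjusted p = 0.913).

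**Figure D4:**
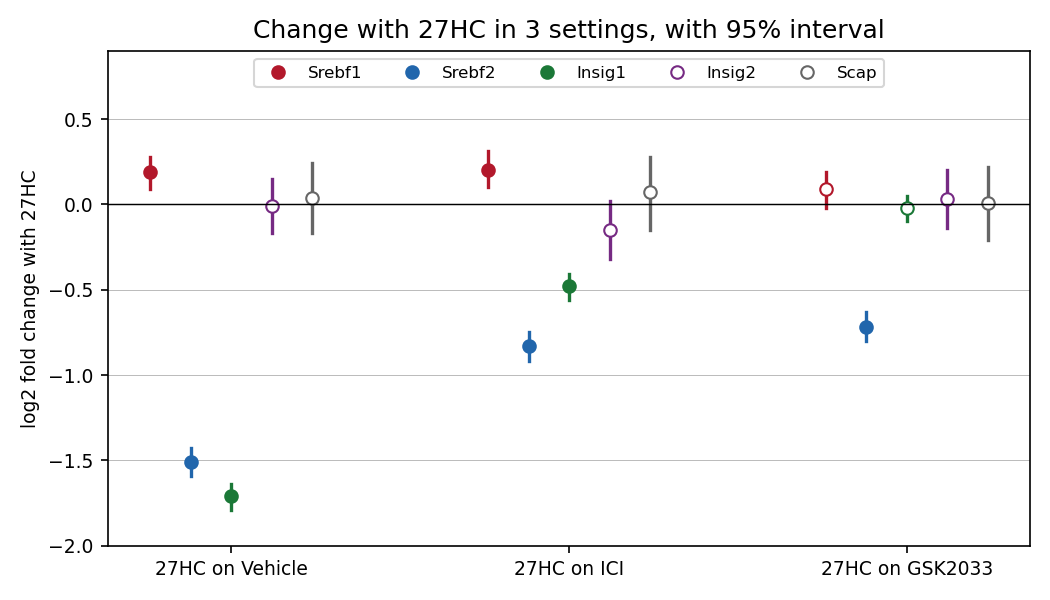
Log2 fold change with 27HC on Vehicle, on ICI and on GSK2033 for the 5 genes, with 95% intervals; filled points had an adjusted p below 0.05. For Insig1 the value went from -1.71 on Vehicle to -0.48 on ICI and -0.02 on GSK2033, and for Srebf2 from -1.51 to -0.83 and -0.72.

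A list of 23 genes of cholesterol synthesis and uptake, chiefly driven by SREBP-2, was read beside the members, and 22 of them were tested. With 27HC, where 20.0% of all genes tested fell, 0 were higher and 21 lower, with a median of -1.03, while the median of all genes tested was within 0.01 of 0 in this and the other comparisons. Idi1, an isomerase gene of the mevalonate pathway, fell by 2.49 on the log2 scale, beside falls of 1.51 for Srebf2 and 1.71 for Insig1. With GSK2033, 20 were lower and 0 higher (median -0.81, 17.9% of all genes lower), and with ICI 19 were lower and 0 higher (median -0.77, 12.5% of all genes lower). Srebf2, itself a target of the SREBPs, was also low in each of these groups. Whether its level set that of the listed genes was not tested.

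With GW3965, 5 of the 22 genes were higher and 7 lower (median 0.04), beside a Srebf2 level near Vehicle. There 23.1% of all genes tested were higher and 21.1% lower. The listed genes ran from -0.68 to 0.42 on the log2 scale. Idi1 fell by 0.61 and Hmgcs1 by 0.44, so both genes named here are from the lower side of that range. With the second compound 21 were lower than Vehicle and 0 higher (median -0.76), and against GW3965 alone 20 were lower and 0 higher (median -0.68). Among all genes tested, 24.4% were lower than Vehicle and 9.56% lower than GW3965 alone. In the interaction of GSK2033 with 27HC, 19 were above 0 and 1 below (median 0.98), and in that of ICI 16 above and 0 below (median 0.81). The shares of all genes tested were 9.34% above and 10.3% below with GSK2033, and 7.39% above and 9.97% below with ICI.

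The list of fatty acid synthesis, 13 of 14 genes tested, followed Srebf1 in part. With GW3965 all 13 rose (median 1.01), led by the desaturase genes Scd2, 24.8-fold, and Scd1, 11.1-fold. With GSK2033, 2 rose and 11 fell (median -0.42). With 27HC, where Srebf1 rose 1.14-fold, 6 rose and 5 fell (median 0.15), Scd2 rising 3.06-fold and Fads2, a desaturase gene of polyunsaturated fatty acids, falling by 1.00 on the log2 scale. With ICI, 3 rose and 4 fell. With E2, 1 of the 13 and 1 of the 22 cholesterol genes passed the test, both higher, where 2.2% of all genes tested rose. The shares of all genes tested that rose were 23.1% with GW3965, 18.4% with GSK2033, 20.3% with 27HC and 13.9% with ICI. Those that fell made up 21.1%, 17.9%, 20.0% and 12.5% in the same order.

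Of the 14 genes of SREBP processing and sterol-regulated degradation, at most 7 rose and at most 2 fell in any treatment against Vehicle, and medians ran from -0.02 to 0.12. With 27HC, 5 rose and 2 fell, where 20.3% of all genes tested rose and 20.0% fell. With GW3965, 6 rose and 1 fell, where 23.1% rose and 21.1% fell. Taken without direction, the shares called were near those of all genes (40.3% and 44.2%). Rnf145, a ubiquitin ligase gene whose product acts on Scap, had group means from 35.9 to 91.3 CPM. It rose with 27HC (0.37 ± 0.0408), GW3965 (0.42 ± 0.0408) and ICI plus 27HC (0.59 ± 0.0406), and fell with GSK2033 (-0.75 ± 0.043), ICI (-0.43 ± 0.0421) and GSK2033 plus 27HC (-0.55 ± 0.0423). Its direction was that of Srebf1 with 27HC, GW3965 and GSK2033 given alone. Syvn1, the ligase of endoplasmic reticulum degradation, rose by 0.43 ± 0.0358 with GSK2033 plus 27HC.

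Of the 10 genes of the COPII coat, the vesicles that carry Scap and its cargo, 5 to 9 rose in each treatment but E2, and Sec24b (named after its values were seen) was not called in any comparison. Against Vehicle, 7 rose with 27HC (median 0.12), 6 with GW3965 (0.13), 8 with GSK2033 (0.33), 5 with ICI (0.12), 0 with E2 (0.01), 7 with GW3965 plus the second compound (0.14), 9 with ICI plus 27HC (0.33) and 9 with GSK2033 plus 27HC (0.66). None fell in these 8. Of all genes tested, 20.3% rose with 27HC, 23.1% with GW3965, 18.4% with GSK2033, 13.9% with ICI, 25.2% with GW3965 plus the second compound, 26.6% with ICI plus 27HC and 24.1% with GSK2033 plus 27HC. In the last group Sec23a, an inner coat gene, rose by 0.91 ± 0.0447 and Sec13, an outer coat gene, by 0.67 ± 0.0351. Scap in the same comparison stood at -0.11.

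**Figure D5:**
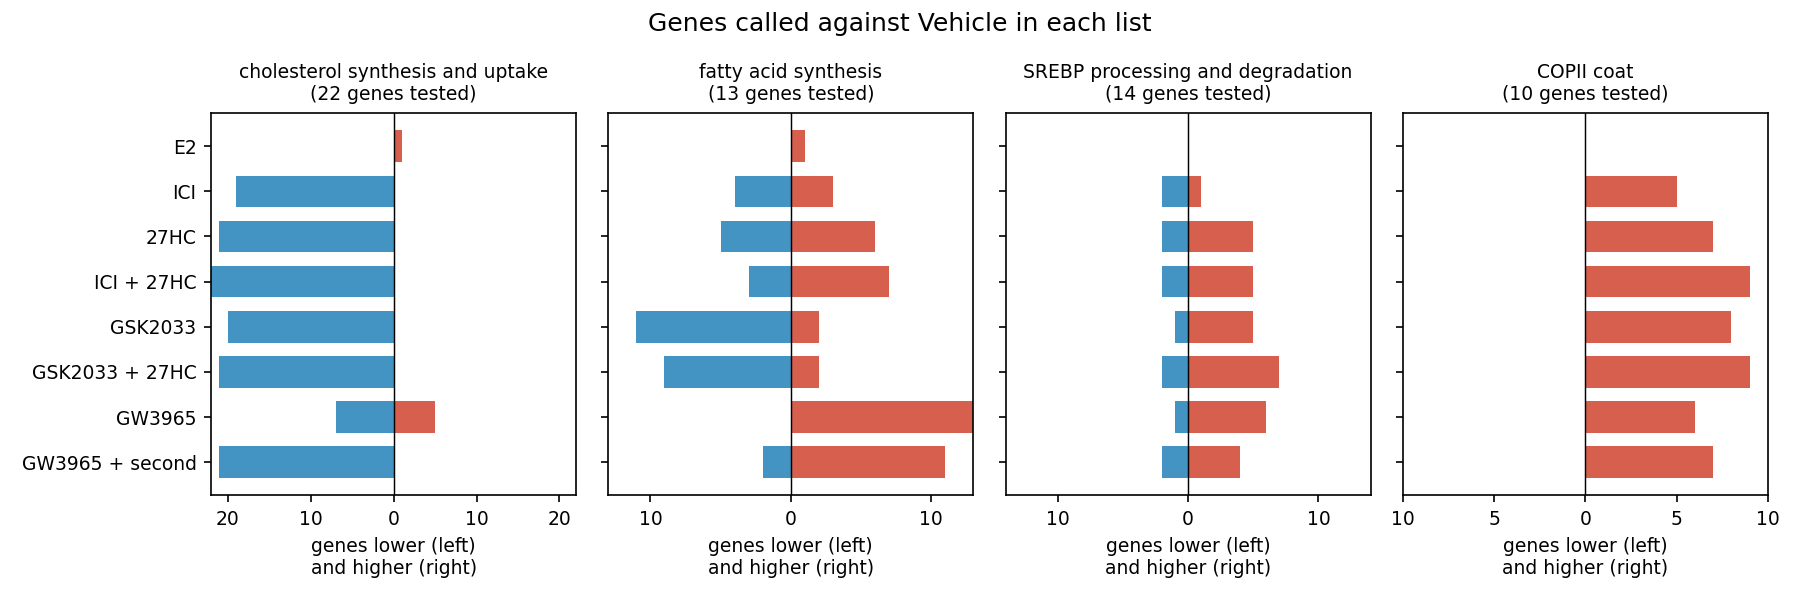
Number of genes called higher (right, red) and lower (left, blue) than Vehicle in each treatment for 4 lists; each axis ends at the number of genes tested. Of the cholesterol genes, 19 to 22 were lower in 6 treatments, all 13 fatty acid genes rose with GW3965, and COPII genes rose in 7 treatments with no gene lower.

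Genes whose level ran like that of a member over the 46 libraries were ranked by Pearson's r of log2 CPM. For Srebf1 they were Scd1 (r = 0.970), Tkt (0.960), Prr13 (0.951), Lpcat3 (0.949) and G6pdx (0.941), and the most opposite were Cd86 (-0.921), Gda (-0.917) and Traf1 (-0.916). For Srebf2 they included Stard4 (0.985), Acta2 (0.976) and Actg2 (0.975), with Jun (-0.929), Plek (-0.913) and Lilr4b (-0.901) at the other end. For Insig1 they included Fdps (0.962), Sc5d (0.948), Slc25a1 (0.938) and Stard4 (0.920), with Plek (-0.912), Metrnl (-0.899) and Rgs1 (-0.863) at the other end. Stard4 and, at the other end, Plek were named for both Srebf2 and Insig1, and none of the genes named for Srebf1 was named for another member. Acta2 and Actg2, named for Srebf2, are smooth muscle actin genes with mean levels of 1270 and 189 CPM. Neither was among the stromal markers read above. Whether stromal cells had a part in the likeness of these actin genes to Srebf2 was not tested. The best match of Insig2 was G3bp2 at 0.617, and both it and every match of Scap were lower than the best matches of the 3 genes that changed.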

How the data were processed

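Per the labels' protocols, stranded libraries of polyadenylated RNA were sequenced on 3 lanes as single reads of 100 nt. The submitters' processing notes name kallisto 0.44.0 and GRCm38. The deposited values are estimated counts per gene, made by the authors. How transcripts were summed to genes, and whether transcript length was corrected for, is not given in the sources used here. They are mostly fractional (11.7% of positive values were within 0.02 of whole) and were rounded for the tests. GENCODE M21 gave symbols for 24279 of 24671 genes.

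Groups came from the labels. Genes with few counts were removed with filterByExpr, leaving 13838. With edgeR 4.0.16 (R 4.3.3), TMM factors (0.974 to 1.044) were computed and a robust quasi-likelihood model with 1 mean per group was fitted to all 46 libraries (37 residual degrees of freedom, common dispersion 0.00571). Contrasts were tested with Benjamini-Hochberg adjustment at 0.05. Intervals are 95% from the t quantile at each gene's total degrees of freedom (40.9 to 42.8 for the members). Log2 CPM used a prior count of 2, and standard errors are the absolute log2 fold change over the root of F. Depth, given in the report, and the number of libraries set the precision. The scripts were tested on simulated data.

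The members, lists and motifs were chosen with earlier results of these data known. Named genes were the members, the 5 most and 3 least correlated genes of mean CPM of at least 1, and up to 4 genes of smallest p per list. Some genes that this rule takes are not reported here. For Insig2 only the best match is printed, and for Scap none. Syvn1 and Fads2 fall under the list rule. Alternatives were DESeq2 1.42.0, other scalings, filters, fits and leaving out each library.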

Additional observations from a re-analysis of the deposited data

Results flagged for a closer look

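Srebf1 in GSK2033 plus 27HC replicate 5 stood at 63.8 CPM, far from the other 4 libraries of its group (49.8 to 52.5 CPM). Its gap to the nearest was 0.806 of the range of the group. It was the only such library among 45 sets of libraries tested (5 genes in 9 groups), and chance flags about 1 in 20. The same library was also the highest of its group for Srebf2, Insig2 and Scap, at 63.8, 40.3 and 60.9 CPM. Without it, Srebf1 differed from Vehicle by -0.441 and from 27HC by -0.627, with the calls as before.

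The change with 27HC differed between cells with and without an antagonist by the test of the interaction. For GSK2033 the difference was 1.69 for Insig1 and 0.79 for Srebf2, and for ICI it was 1.23 for Insig1 and 0.68 for Srebf2, all on the log2 scale.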

How the results depend on the processing

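Each of the 85 member results was recomputed under other scalings, filters and fits, with DESeq2 and without each library in turn. Of 1680 such values, 1666 kept their side of the threshold, 13 became called and 1 lost its call, which touched 5 of the 85 results. Among values called before or after, 0 reversed direction. Some that were called in neither changed sign, such as Scap for 27HC against Vehicle (-0.074 to 0.097). On library totals 2 members in place of 1 were called for GSK2033 plus 27HC against GSK2033, Srebf1 (0.139, adjusted p = 0.0348) joining Srebf2. For ICI plus 27HC against 27HC, 0 to 1 members were called when a library was left out, the 1 being Srebf2 (-0.111, adjusted p = 0.0481) without 27HC replicate 2. Srebf1 for ICI plus 27HC against Vehicle became called on library totals (0.128, adjusted p = 0.0254), by upper-quartile scaling (0.116, adjusted p = 0.0408) and without Vehicle replicate 4 (0.127) or ICI plus 27HC replicate 3 (0.138). Insig2 for GW3965 plus the second compound against Vehicle became called under a stricter filter (-0.196, adjusted p = 0.0363), with only the groups compared (-0.192, adjusted p = 0.0352), and without Vehicle replicate 1 or 2 or replicate 4 or 5 of the combination (-0.226 to -0.204). The cause was not tested. The scalings moved the median of all genes by at most 0.056.

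Replicate numbers were not taken to pair the libraries. Of 180 pairs of libraries with the same number, 0 had a correlation of deviations over 0.1 (range -0.072 to 0.0998), and 34.8% of libraries, not all, correlated best with a library of their own number, where such libraries made up 19.1% of those compared. With the replicate block, 1 of the 85 calls changed, Srebf1 for ICI plus 27HC against Vehicle (0.109, adjusted p = 0.0481).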
